A study of Mus musculus with 60 samples.

Results

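The proteasome genes of the mouse were followed in single preimplantation embryos and in the somatic cells that served as nuclear donors. The 50 genes are the protein-coding genes of the table whose GENCODE M21 symbol begins with Psma, Psmb, Psmc, Psmd, Psme, Psmf or Psmg and a digit, out of 27238 genes measured. They comprise 8 alpha and 7 standard beta subunits of the 20S core, 4 inducible or tissue-specific beta subunits, 6 ATPases and 11 other subunits of the 19S cap, 7 assembly chaperones, and 6 activators or inhibitors. The last, Psmc3ip, was taken in by its symbol, although its product acts in meiotic recombination and is no proteasome subunit.

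The embryos were of 3 types. Each type was sampled at 6 stages, from the 1-cell stage through those of 2, 4 and 8 cells to the morula and the blastula, with 3 single-embryo libraries in each group. In vivo embryos were collected from superovulated C57BL/6 females mated with DBA2 males. NTC embryos were made by transfer of cumulus cell nuclei, and NTM embryos by transfer of nuclei of mouse embryonic fibroblasts (MEFs), into enucleated oocytes of C57BL/6 by DBA2 F1 (BDF1) females. The cumulus cells came from superovulated BDF1 females. The MEFs came from BDF1 fetuses and were starved of serum. All nuclear transfer (NT) embryos were activated with strontium chloride in the presence of cytochalasin B, treated with the histone deacetylase inhibitor Scriptaid and cultured in vitro, so that culture, drug and nuclear transfer cannot be told apart from one another in any comparison with in vivo embryos. Embryos were picked by their morphology, so the NT groups stand only for NT embryos of normal appearance. Cumulus cells (CC) and MEFs made up the remaining 2 groups, again with 3 libraries each, so that there were 60 libraries in 20 groups. The labels call the libraries independent experiments, and no label ties a library to an animal, so p-values measure the spread between these libraries.

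The 26S proteasome degrades proteins that carry ubiquitin chains. Its core (20S) is a barrel of stacked rings, in which the alpha subunits form the outer gates and the subunits Psmb5, Psmb6 and Psmb7 hold the cutting sites, and its cap (19S) binds, unfolds and feeds in the substrate. The rings take their subunits in equal numbers, and in many cells the transcription factor Nfe2l1 is known to drive their genes together. In the early embryo the proteasome takes part in the clearance of proteins that the oocyte left behind.

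Levels are given as RPKM, the reads of a gene per kilobase of exon and scaled to the reads of the library. Where levels of different genes are compared per length, the result depends on the exon length used. That length was 3421 nt for Psmb7 and 871 nt for Psmb5, for example. Whether reads covered these lengths evenly was not tested. Libraries held 5294167 to 47830132 reads on genes, and every donor library (31558140 or more) was deeper than every embryo library (26281508 or fewer). An RPKM of 0 leaves room for up to 3 reads by counting alone, which on a transcript of 2000 nt is 0.0314 to 0.283 RPKM, and the reads carry no molecular identifiers, so this covers counting error only. A gene counted as called in a comparison when its adjusted p (limma, Benjamini-Hochberg over all genes tested) was under 0.05 and its log2 fold change was 1 or more in either direction. Fold changes are differences of log2(RPKM + 1) and understate the change of genes with low values. Genes with a mean RPKM under 0.5 in the libraries compared were left out of a fit, which left 37 to 47 of the 50 proteasome genes in it. Embryo libraries hold the RNA of 1 embryo whose cell number changes with the stage, so fewer cells and less RNA per cell cannot be told apart, and RPKM gives a gene's share of the library rather than its amount.

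The labelled cell types were checked by their markers. A list of 6 oocyte genes (such as Zp3 and Gdf9) summed to 2154 to 4309 RPKM in in vivo 1-cell embryos and were all listed at 0 in in vivo blastulas, where 4 trophectoderm genes (such as Cdx2) summed to 424 to 1078 RPKM. A list of 10 fibroblast genes (such as Col1a1) summed to 8781 to 11509.9 RPKM in MEFs and to 4.81 to 6.47 in CCs. Of 10 cumulus genes (such as Amh and Inha), 7 had a mean of at least 1 RPKM in CCs and 4 in MEFs, and Has2 and Cyp19a1 were listed at 0 in all CC libraries.

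The in vivo 4-cell group stood apart from all others in the proteasome genes. In the 3 in vivo 4-cell libraries, mitochondrial genes took 5.68 to 8.87% of the reads, against 20.4 to 64.2% in the libraries of the other 11 groups from the 4-cell stage on. The proteasome genes took 1.13 to 1.26% of the reads there and 0.210 to 1.04% in those 11 groups. These are shares of all reads, so the lower mitochondrial share of the in vivo 4-cell libraries raises their proteasome share. Whether this gap holds over nuclear genes alone is not given here. Across the 50 genes, group means of log2(RPKM + 1) had a Spearman rho of 0.90 to 0.99 between any pair of the 11 groups, but of only 0.60 to 0.68 between in vivo 4-cell embryos and any of them. These correlations are across genes, which are not independent replicates.

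The median level of the 20 core subunits (Psma1 to Psma7, Psmb1 to Psmb7 and Psmc1 to Psmc6) was 186 RPKM in in vivo 4-cell embryos (mean of 3 libraries), 5.29 to 11.2 in the 6 groups of 1-cell and 2-cell embryos, 26.96 to 59.99 in the other 11 embryo groups, 38.3 in CCs and 41.5 in MEFs. Within the in vivo 4-cell libraries, the levels of these subunits lay closer together than in any other library. Their SD on the log2(RPKM + 1) scale was 1.05 to 1.14 in these 3 libraries, 1.18 to 1.52 in MEFs and 1.63 to 2.65 in the other embryo libraries. The highest mean level among the 20 (Psmb5) was 14.7 times the lowest (Psmb7) in in vivo 4-cell embryos, and the same ratio in other groups began at 27.9. The plot of core subunit levels shows this narrow band.

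**Figure D1:**
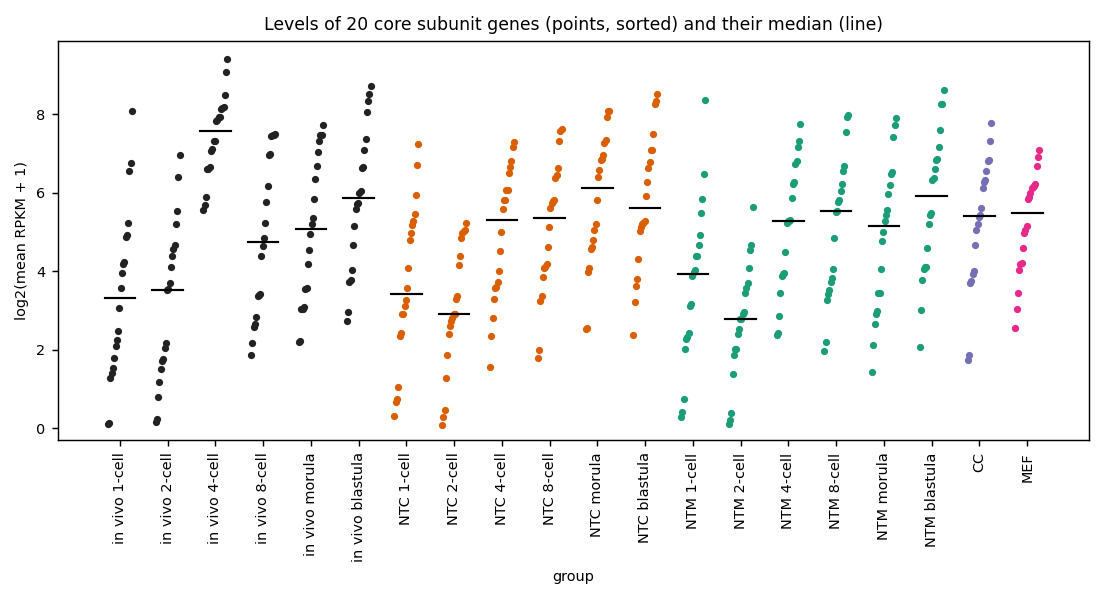
The plot gives, for each of the 20 groups on the x axis, the mean level of each of 20 core subunit genes over 3 libraries as log2(mean RPKM + 1) on the y axis (points, sorted from low to high) and the median of the 20 (black line). In vivo 4-cell embryos form the highest and narrowest band, and the 1-cell and 2-cell groups have the lowest medians.

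Psmb5, which cuts after hydrophobic residues, had 790.3, 584 and 657 RPKM in the 3 in vivo 4-cell libraries and at most 24.4 as the mean of any other group, donor cells included. Psmb4, a structural subunit of the beta ring, had 251, 215 and 259.7 RPKM there and a mean of at most 5.60 elsewhere. Psmg2, a chaperone of alpha-ring assembly, had 115, 85.8 and 103 RPKM there, and its next group mean was 6.78. Altogether 17 of the 50 genes were higher in each of these 3 libraries than in any of the other 57, as were 4.1% of all 27238 genes, while other genes, such as Psmd14, Psma1 and Psmd8, were not. The 3 libraries resembled each other (Pearson's r of 0.95 to 0.96 over all genes), and since all in vivo 4-cell embryos are in this group, its stage and its libraries cannot be told apart. Results that use these libraries are given beside the same comparison with 8-cell embryos in their place, a choice made after the data had been seen.

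**Figure D2:**
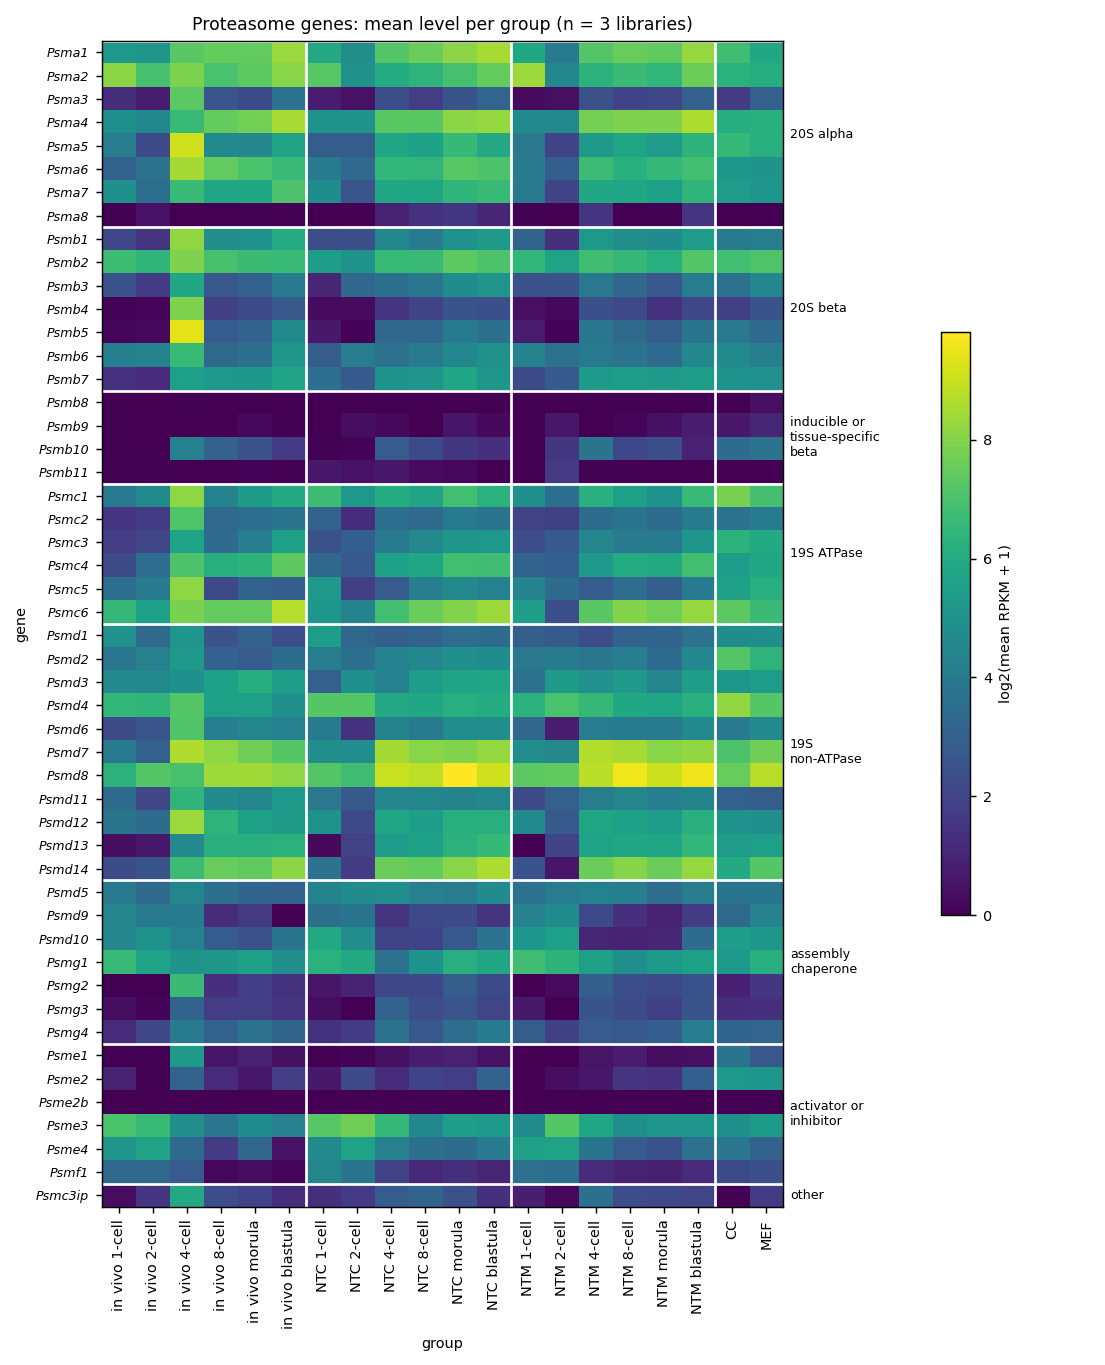
The heat map gives log2(mean RPKM + 1) over 3 libraries for the 50 proteasome genes (rows, by role) in the 20 groups (columns). From the 4-cell stage on, the columns of the 3 embryo types resemble each other except for in vivo 4-cell embryos, where Psma3, Psmb4, Psmb5 and Psmg2 are bright and elsewhere dim.

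The main change in the proteasome genes was a rise after the 2-cell stage. From the 2-cell stage to 8 cells, 20 of the 44 proteasome genes tested rose and 4 fell in in vivo embryos, where 13.8% of all genes tested rose and 27.8% fell. In NTC embryos 24 of 45 rose and 4 fell, against 14.1% and 21% of all genes. In NTM embryos 24 of 45 rose and 7 fell, against 17.9% and 21.9%. The median log2 fold change of the proteasome genes was 1.24 (in vivo), 1.67 (NTC) and 1.93 (NTM), where the median of all genes tested was -0.89, -0.29 and -0.42. Without the filter on low values, with 47 to 49 of the 50 genes in the fit, 16, 21 and 22 genes rose and 3, 4 and 7 fell. Shares of all genes called in that fit are not given.

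**Figure D3:**
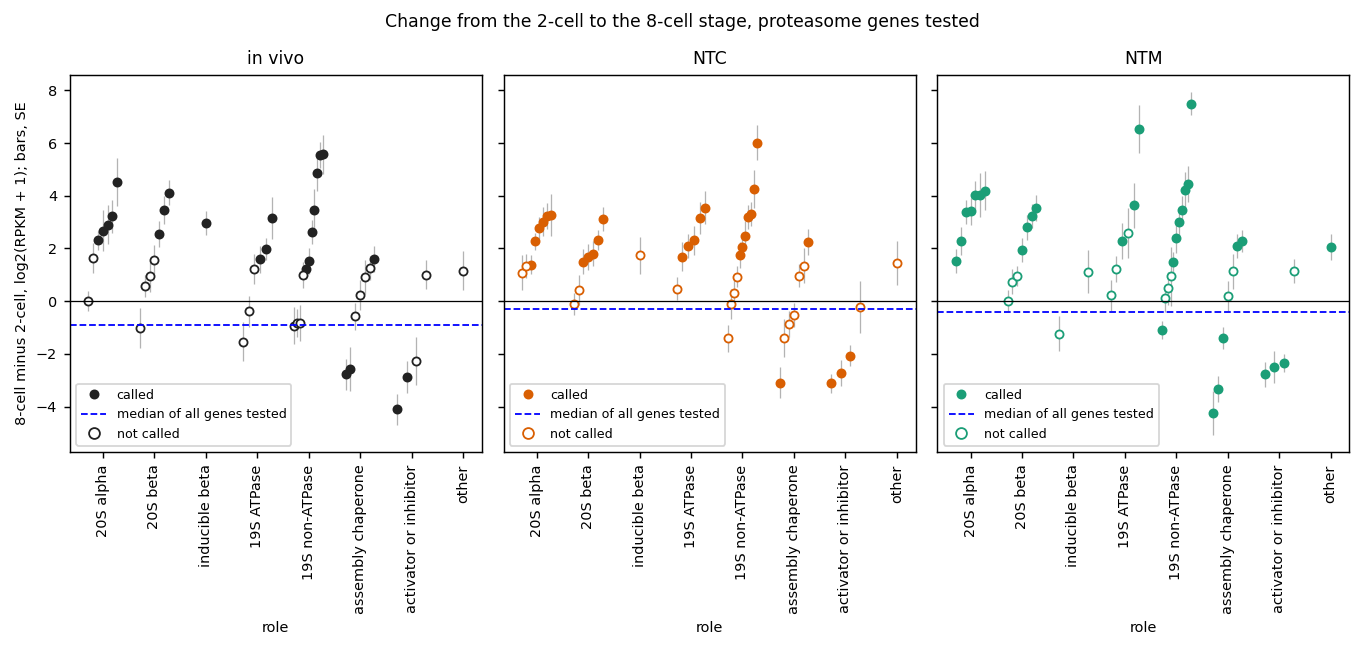
The plot gives the difference between the 8-cell and the 2-cell stage in log2(RPKM + 1) (y axis, bars are SE) for each proteasome gene tested, by role (x axis), in the 3 embryo types, with filled points for called genes and a dashed line for the median of all genes tested. Core and cap subunits lie mostly above the dashed line, and the called genes below 0 are mainly chaperones, activators and the inhibitor.

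The 3 embryo types share no library in this comparison, so their calls can be set against each other. The same 19 genes rose in all 3 types, which is 95% of those that rose in vivo and 79.2% of those in either NT type. Of the 44 proteasome genes tested in all 3 types these are 19, and of all 9326 genes so tested 9.64% rose in all 3 and 16.7% fell in all 3. The 19 are Psma1, Psma4, Psma5, Psma6 and Psma7 of the alpha ring, Psmb1, Psmb5 and Psmb7 of the beta ring, the ATPases Psmc2, Psmc4 and Psmc6, the cap subunits Psmd6, Psmd7, Psmd8, Psmd11, Psmd12, Psmd13 and Psmd14, and the alpha-ring chaperone Psmg3. Psmd10, Psme4 and Psmf1 fell in all 3 types, which is 75% of those that fell in vivo and in NTC embryos and 42.9% of those in NTM embryos.

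By role, 5, 6 and 7 alpha subunits rose in the in vivo, NTC and NTM types, in this order. For the standard beta subunits the counts were 3, 5 and 4 of 7, for the cap ATPases 3, 5 and 3 of 6, and for the other cap subunits 7 of 11 in each type. No core subunit or ATPase fell in any of the 3 types. Among the activators and the inhibitor none rose, and 2, 3 and 3 fell, of 4 tested in each type. Assembly chaperones went both ways, with 1, 1 and 2 higher and 2, 1 and 3 lower of 7.

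To show what lies before genes that moved together, the 250 bases upstream of the RefSeq start (build GRCm38.p6, 5′ to 3′ along the gene) are given for 3 genes that rose and 2 that fell in all 3 types. Capitals mark matches on either strand to 5 motifs, and matches that touch or overlap run together. The antioxidant response element, the site class bound by Nfe2l1 and Nfe2l2, was searched as TGACNNNGC. The motif of nuclear respiratory factor 1 was searched as GCGCNTGCG. For the Sp family the letters were GGGCGG. For the ETS family they were CCGGAAG. The fifth motif was the CCAAT box, spelled by its name.
Psmd14, chr2:61711444-61711693, plus strand: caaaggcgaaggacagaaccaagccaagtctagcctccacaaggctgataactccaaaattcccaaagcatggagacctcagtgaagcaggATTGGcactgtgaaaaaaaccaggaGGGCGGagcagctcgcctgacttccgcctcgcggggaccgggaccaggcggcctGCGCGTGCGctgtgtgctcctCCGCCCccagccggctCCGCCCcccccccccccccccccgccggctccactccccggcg
Psmc6, chr14:45329574-45329823, plus strand: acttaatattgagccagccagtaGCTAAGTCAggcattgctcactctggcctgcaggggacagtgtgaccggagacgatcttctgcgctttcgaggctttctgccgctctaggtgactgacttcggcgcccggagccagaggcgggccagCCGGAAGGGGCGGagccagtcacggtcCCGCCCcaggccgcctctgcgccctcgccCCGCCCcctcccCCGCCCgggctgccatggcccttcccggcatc
Psmb5, chr14:54617996-54618245, minus strand: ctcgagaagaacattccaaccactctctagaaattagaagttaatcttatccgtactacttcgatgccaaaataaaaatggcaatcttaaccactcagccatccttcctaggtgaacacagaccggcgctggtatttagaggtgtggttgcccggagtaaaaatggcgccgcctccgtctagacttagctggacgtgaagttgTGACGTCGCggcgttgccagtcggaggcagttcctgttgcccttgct
Psme4, chr11:30771525-30771774, plus strand: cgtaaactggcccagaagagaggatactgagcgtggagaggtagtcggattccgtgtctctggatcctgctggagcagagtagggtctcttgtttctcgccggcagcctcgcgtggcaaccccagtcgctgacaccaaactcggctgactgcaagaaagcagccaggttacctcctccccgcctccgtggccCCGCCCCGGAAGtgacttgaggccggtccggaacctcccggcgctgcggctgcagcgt
Psmd10, chrX:140956712-140956961, minus strand: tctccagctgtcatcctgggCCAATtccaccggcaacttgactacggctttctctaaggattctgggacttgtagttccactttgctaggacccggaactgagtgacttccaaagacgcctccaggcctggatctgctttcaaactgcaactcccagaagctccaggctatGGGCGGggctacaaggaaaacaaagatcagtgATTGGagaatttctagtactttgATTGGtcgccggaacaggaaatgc
The table of promoters held 42 of the 50 genes, and a gene with more than 1 start counted as holding a motif when any of its promoters did. The ETS core was present in 13 of these promoters (30.95%), against 7.83% of the promoters of all 27025 genes. The Sp motif was present in 22 (52.4%, against 35.4%) and the nuclear respiratory factor 1 motif in 6 (14.3%, against 5.88%). The antioxidant response element was in 5 (11.9%, against 11.5%) and the CCAAT box in 15 (35.7%, against 37.5%), both near the share of all promoters. Of the 16 genes with a promoter that rose in all 3 types, 10 held the Sp motif and 6 the ETS core, and of the 3 that fell in all 3 types, 2 held the Sp motif and 1 the ETS core. These are matches of letters and say nothing of binding. The 27025 genes were not matched to the proteasome genes by expression. Whether other expressed genes hold these motifs as often was not tested.

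Psmd14, the deubiquitinase of the cap that removes the ubiquitin chain from a bound substrate, had the largest fold change of the proteasome genes in both NT types. At the 2-cell stage its 3 libraries held 6.17, 6.87 and 1.67 RPKM in vivo, 0, 2.52 and 4.49 for NTC and 1.18, 0.206 and 0.0859 for NTM. In 8-cell embryos the levels were 280.2, 206 and 64.3 RPKM in vivo, 185, 239.9 and 114 for NTC and 274, 311 and 195 for NTM. All 8-cell libraries were above all 2-cell libraries. The log2 fold change was 4.87 (SE 0.70, adjusted p 0.00121) in vivo, 6.01 (SE 0.66, adjusted p 3.56e-04) in the NTC type and 7.50 (SE 0.45, adjusted p 4.29e-05) in the NTM type. In 1-cell embryos the means were 3.75 ± 3.55 (in vivo), 12.4 ± 7.32 (NTC) and 4.52 ± 4.91 RPKM (NTM, SD over 3 libraries), and in blastulas they were 276 ± 221, 386 ± 43.6 and 305 ± 143.

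Psmd13, a scaffold subunit of the cap, was low up to the 2-cell stage, with no 1-cell library over 0.465 RPKM. It had 0.380, 1.40 and 0 RPKM at the in vivo 2-cell stage and 57.2, 76.1 and 75.3 at the 8-cell stage, a log2 fold change of 5.55 (SE 0.50, adjusted p 1.91e-04). The fold change was 4.24 (SE 0.72) for NTC and 4.22 (SE 0.68) for NTM, and in no type did the 2-cell and 8-cell libraries overlap. Its exons share bases with Sirt3 on the other strand, and so do those of Psma4 (with AY074887), Psma5 (1700010K24Rik), Psmb7 (Nek6), Psmb9 (Tap1), Psmc3 (Slc39a13), Psmc3ip (Mlx), Psmd1 (Htr2b), Psmd3 (Gm12356) and Psme1 (Emc9). Without strand in the counting, reads of such a pair cannot be told apart. Psmd7, the partner that forms a dimer with Psmd14, had log2 fold changes of 5.58 (SE 0.74), 3.31 (SE 0.47) and 4.44 (SE 0.68) in the in vivo, NTC and NTM types, from means of 6.94, 27.3 and 23.2 to 279, 269.6 and 369 RPKM. Psmc6, an ATPase of the ring that unfolds substrates, had 12.4, 0.372 and 0.0516 RPKM in NTM 2-cell embryos and 255, 266 and 229 in NTM 8-cell embryos, a log2 fold change of 6.55 (SE 0.91, adjusted p 0.00107). In in vivo embryos, which already had 44.5, 63.04 and 28.2 at the 2-cell stage, the change of Psmc6 was 1.99 (SE 0.43), and in NTC embryos it was 3.55 (SE 0.64).

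The 3 subunits that carry the standard cutting sites had different courses. Psmb7, with the trypsin-like site, rose in all 3 types, with 4.11 (SE 0.48) in vivo, 2.33 (SE 0.39) for NTC and 2.80 (SE 0.47) for NTM. Its 2-cell means of 1.27, 5.94 and 5.85 RPKM became 36.5, 33.6 and 44.6. Psmb5, with the chymotrypsin-like site, had 0.185, 0 and 0.347 RPKM at the in vivo 2-cell stage and 6.66, 8.20 and 3.56 at the 8-cell stage, and its log2 fold change was 2.55 (SE 0.48) in vivo, 3.13 (SE 0.46) for NTC and 3.24 (SE 0.47) for NTM. Psmb6, with the caspase-like site, was not called in any type. Its log2 fold changes were -1.03 (SE 0.76, adjusted p 0.293), -0.10 (SE 0.42, adjusted p 0.862) and 0.01 (SE 0.41, adjusted p 0.992), and the 2-cell and 8-cell libraries overlapped in each type (6.91, 18.95 and 33.6 against 17.7, 7.60 and 3.04 RPKM in vivo). At the 8-cell stage Psmb7 was the highest of the 3 per length in every type, with 36.5 ± 2.53 RPKM in vivo beside 6.14 ± 2.36 for Psmb5 and 9.44 ± 7.50 for Psmb6, where the libraries of Psmb5 and Psmb6 overlapped.

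The inhibitor, some activators and some chaperones fell. Psme4, the activator PA200, which opens the core without ubiquitin, had 32.7, 44.3 and 80.8 RPKM at the in vivo 2-cell stage and 2.22, 3.91 and 0.535 at the 8-cell stage. The log2 fold change of Psme4 was -4.11 (SE 0.61, adjusted p 0.00135) in vivo, -2.08 (SE 0.40, adjusted p 0.00450) for NTC and -2.78 (SE 0.48, adjusted p 0.00298) for NTM. Psmf1, the inhibitor PI31, had 19.4, 5.29 and 3.79 and then 0.206, 0.157 and 0.107 RPKM in vivo and fell in all 3 types, with log2 fold changes of -2.88 (SE 0.62), -2.73 (SE 0.49) and -2.48 (SE 0.61). For both genes the 2-cell and 8-cell libraries did not overlap in any type, and the call of Psmf1 in NTM embryos was lost without NTM 8-cell replicate 1 or 3. Psmd10 (gankyrin), a chaperone of the cap base, had 48.4, 21.3 and 25.6 RPKM in vivo and then 7.75, 10.7 and 0.352. It changed by -2.58 (SE 0.85), -3.09 (SE 0.58) and -4.24 (SE 0.83). The in vivo call of Psmd10 (adjusted p 0.0417) was lost under median-ratio scaling, with nuclear genes alone, with a pseudocount of 0.1, without the filter and without any 1 of the in vivo libraries other than 8-cell replicate 2. Psmd9, another chaperone of the base, fell in vivo (-2.78, SE 0.57) and in NTM embryos (-3.33, SE 0.50), and in NTC embryos its change was -1.40 (SE 0.73, adjusted p 0.170).

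Psme3, the nuclear activator REG gamma, was the most abundant activator per length in in vivo and NTC 1-cell embryos. It had 159.6, 98.1 and 134 RPKM in in vivo 1-cell embryos and 157, 152 and 146 in NTC 1-cell embryos, but 25.4, 30.7 and 19.6 in NTM 1-cell embryos. At the 2-cell stage Psme3 was at 162, 160.3 and 125 RPKM for NTM, 207, 175 and 229.6 for NTC and 175, 113 and 13.2 in vivo. It then fell in both NT types up to 8 cells, with log2 fold changes of -3.12 (SE 0.35) for NTC and -2.33 (SE 0.34) for NTM. In vivo, where 1 of the 2-cell libraries lay within the range of the 8-cell libraries (20.2, 9.54 and 10.6 RPKM), the difference was -2.26 (SE 0.92, adjusted p 0.0828). Psmg1, which pairs with Psmg2 in alpha-ring assembly, fell in NTM embryos (-1.39, SE 0.41, adjusted p 0.0302), a call lost with nuclear genes alone and without NTM 2-cell replicate 2 or any NTM 8-cell library, and was not called in vivo (-0.57, SE 0.52) or in NTC embryos (-0.87, SE 0.51). Psmd4, the ubiquitin receptor of the cap, fell in NTM embryos (-1.11, SE 0.34, adjusted p 0.0351), a call lost in 5 of 6 fits that left out a library and under both other scalings. Its changes in vivo (-0.83, SE 0.54) and in NTC embryos (-1.41, SE 0.52) were not called.

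**Figure D4:**
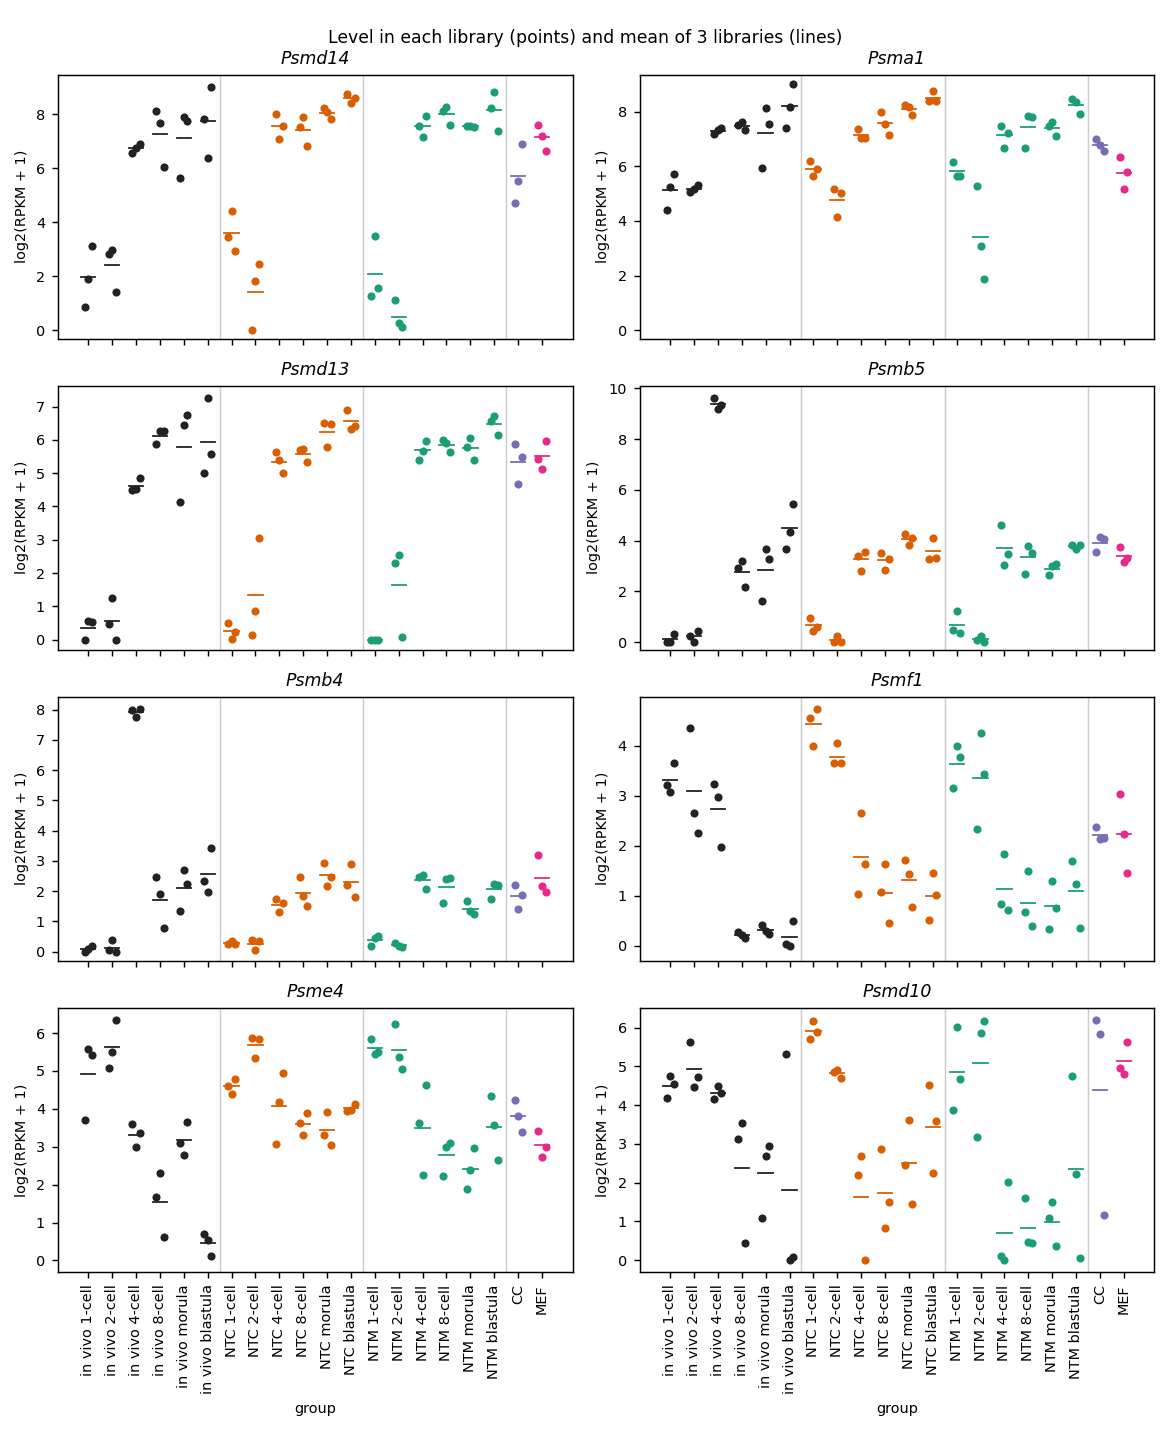
The plots give log2(RPKM + 1) (y axis) of 8 genes in every library (points) of the 20 groups (x axis), with the mean of each group as a line. Psmd14, Psma1, Psmd13 and Psmb5 lie higher from the 4-cell stage on in all 3 embryo types, Psmb4 and Psmb5 peak in in vivo 4-cell embryos, and Psmf1 and Psme4 lie lower after the 2-cell stage.

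Whether the change from 2 to 8 cells differed between NT and in vivo embryos was tested by interaction terms. None of 45 proteasome genes tested was called for NTC against in vivo (0.219% of all genes tested) or for NTM against in vivo (0.577%), by limma, with 7 and 5 genes at an unadjusted p under 0.05. The lowest adjusted p among them was 0.135 and 0.0844. A fit over all 20 groups, which share a single estimate of the spread in it, called 1 and 3, and without NTM 2-cell replicate 1 the NTM count was 1. Both tests use the same in vivo libraries.

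The step from the 2-cell to the 4-cell stage uses the same 2-cell libraries. There 24 of 44 genes rose and 5 fell in NTC embryos (16.4% and 20.1% of all genes), and 18 of 45 rose and 2 fell in NTM embryos (12.1% and 14.3%). The largest rises were Psmd14 (6.12 in NTC and 7.05 in NTM), Psmd13 (3.999) and Psmd7 (3.74) in NTC, and Psmc6 (5.87) and Psmd7 (4.55) in NTM embryos. In NTC embryos Psmd10 (-3.19), Psmg1 (-2.57), Psmf1 (-2.01), Psme4 (-1.61) and Psme3 (-1.18) fell, and in NTM embryos Psmd10 (-4.37) and Psmd9 (-3.003). The NTM count of 20 calls became 12 without NTM 2-cell replicate 2 and 13 without NTM 4-cell replicate 1. All of these 4-cell values can be set beside the 8-cell values above, where 31 genes were called in the NTM type.

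In vivo, 33 of 45 genes rose to the 4-cell stage and only Psme4 fell (-2.33), against 31.4% and 20.8% of all genes. The largest rises were Psmb5 (9.17, SE 0.33, adjusted p 1.77e-05), Psmb4 (7.78, SE 0.33) and Psma5, an alpha subunit (7.37, SE 0.68). Between the in vivo 4-cell and 8-cell libraries 27 of 45 fell and 2 rose, against 39.3% and 4.4% of all genes, with Psmb5 (-6.62, SE 0.33), Psmb4 (-6.21, SE 0.45) and the ATPase Psmc5 (-6.03, SE 0.36) changing most and Psmd8 (1.45) and Psmd13 (1.51) going up. Under median-ratio scaling, which moved the median of all genes from -1.05 to -0.34, 17 fell and 9 rose. The shares of all genes called under this scaling are not given. In NTC and NTM embryos no proteasome gene was called over the same step by limma (4 and 0 at an unadjusted p under 0.05), where 0.0564% and 0.363% of all genes were.

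At the 4-cell stage more proteasome genes were called lower than higher in NT embryos against in vivo embryos. In NTC embryos 27 of 45 were lower and 2 higher (20.4% and 7.4% of all genes), and in NTM embryos 23 of 46 were lower and 1 higher (17.8% and 3.33%). Psmb5 had 9.62, 6.01 and 10.7 RPKM in NTC and 23.4, 7.28 and 10.03 in NTM 4-cell embryos, and its difference from in vivo was -6.14 (SE 0.29, adjusted p 4.28e-06) and -5.69 (SE 0.45, adjusted p 2.91e-04). Psmb4 differed by -6.37 (SE 0.30) and -5.56 (SE 0.37), and Psmc5 by -5.37 (SE 0.34) and -5.86 (SE 0.77). Psmd8, a cap subunit, was higher in both (2.05 and 1.75), and Psme3 was higher in NTC embryos (1.66).

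These counts changed with the scaling and with the later stage used. Under median-ratio scaling the lower and higher genes were 22 and 5 for NTC against 13 and 5 for NTM, and with nuclear genes alone they were 22 and 5, and 15 and 4. The shares of all genes called under these scalings are not given, so these counts have no background beside them. The NTM count of 24 calls was 15, 13 and 14 without in vivo 4-cell replicate 1, 2 and 3. At the 8-cell stage, against the in vivo 8-cell libraries, no proteasome gene was called by limma in NTC (1.46% of all genes called, 7 proteasome genes at an unadjusted p under 0.05) or in NTM embryos (2.02%, 7). By interaction terms for the step from the 2-cell to the 4-cell stage, which share these libraries, 17 of 45 genes rose less or fell more in NTC than in vivo and 1 (Psmd8) the reverse (12% and 2.38% of all genes), and in NTM embryos these were 11 and 1 (Psmd14) of 47 (8.05% and 1.86%). The NTM count of 12 became 7 without in vivo 4-cell replicate 1, and with 8-cell in place of 4-cell libraries both counts were 0.

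The step from the 1-cell to the 2-cell stage was tested in each type. In vivo, no proteasome gene was called by limma, and neither was any other gene (0% of 10854), with 3 proteasome genes and 615 genes in all at an unadjusted p under 0.05. In NTC embryos 9 of 40 fell and 4 rose (8.95% and 4.53% of all genes). Psma2 of the alpha ring went from 144, 147 and 161 to 26.7, 36.5 and 28.4 RPKM in NTC embryos (-2.28, SE 0.22, adjusted p 6.88e-04). These libraries did not overlap. The largest falls were those of Psmc5 (-3.50, SE 0.37) and of the cap subunits Psmd12 (-2.84, SE 0.31) and Psmd6 (-2.59, SE 0.38). The 4 that rose were the beta subunits Psmb3 (2.18, SE 0.43) and Psmb6 (1.27, SE 0.32), the cap subunit Psmd3 (1.94, SE 0.31) and Psme4 (1.08, SE 0.27). The count of 13 fell to 6 without NTC 1-cell replicate 3, to 8 without replicate 1 and to 7 without replicate 2.

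In NTM embryos 3 of 38 fell and 1 rose (6.68% and 2.72%), both near the share of all genes. In all, 2 were called without any 1 of the NTM 1-cell libraries and 7 without NTM 2-cell replicate 1. Psma2 went from 338, 295 and 342 to 21.03, 36.5 and 9.24 RPKM (-3.998, SE 0.46, adjusted p 0.00212). Psmc6 (-4.01, SE 0.90) and Psmd6 (-2.75, SE 0.64) fell as well, and Psme3 rose (2.53, SE 0.33, adjusted p 0.00334). Whether these transitions differ between types was not tested.

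NTM and NTC embryos already differed at the 1-cell stage. Of 37 genes, 6 were higher and 5 lower in NTM than in NTC embryos, against 5.64% and 14.2% of all genes. The count of lower genes was thus near the share of all genes, and that of higher genes was above it. Psme3 was lowest relative to NTC (-2.56, SE 0.20, adjusted p 1.87e-04), followed by Psmd1, a scaffold of the cap base (5.27, 8.48 and 6.70 against 38.6, 46.4 and 46.9 RPKM, -2.54, SE 0.25), the ATPase Psmc1 (-1.82, SE 0.27), Psmd11 (-1.67) and Psmb7 (-1.34). Psmb6 (22.4, 18.3 and 18.9 against 5.39, 6.71 and 7.21 RPKM, 1.49, SE 0.25), the chaperone Psmg4 (1.43, SE 0.39) and Psmb3 (1.38, SE 0.33) were higher by the most, with Psma2 (1.10), Psmb2 (1.04) and Psme4 (1.004). None of the libraries of the 2 groups overlapped in Psme3, Psmd1 or Psmb6. With nuclear genes alone the counts were 5 higher and 7 lower. The 11 calls became 17 without NTM 1-cell replicate 2, 6 without NTC 1-cell replicate 2 and 7 without NTC 1-cell replicate 3. Shares of all genes called are not given for these alternatives.

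Against in vivo 1-cell embryos, Psmc1 alone was higher in NTC embryos (84.1, 113 and 114 against 11.7, 18.96 and 13.1 RPKM, 2.76, SE 0.32, adjusted p 0.0155), of 38 genes tested (1.16% of all genes called in either direction). Psme3 alone was lower in NTM embryos (-2.32, SE 0.35, adjusted p 0.0195), of 37 tested (1.28%). Both calls were lost with the replicate number as a block, and that of Psme3 also without the filter. The in vivo 1-cell libraries were less alike than the NT libraries (Pearson's r between libraries from 0.84, against 0.96 or more in NTC and 0.95 or more in NTM). The NTC count was 11 without in vivo 1-cell replicate 1 and 0 without in vivo replicate 2 or any NTC library. The NTM count was 3 without in vivo replicate 1 and 0 without any 1 of the other 5 libraries. Both comparisons use the same in vivo libraries.

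In the comparisons made between embryos after the 8-cell stage, few differences were detectable with 3 libraries in a group. The step from 8 cells to the morula and differences between embryo types in morulas were not tested. Between morula and blastula no gene was called by limma in any type, where 0.801% of all genes were called in vivo, 7.16% for NTC and 4.22% for NTM, and 3, 2 and 9 proteasome genes had an unadjusted p under 0.05. The NTM count was 6 without NTM blastula replicate 3. In blastulas, Psme4 alone was higher in NTC than in vivo (14.4, 14.6 and 16.5 against 0.615, 0.460 and 0.0935 RPKM, 3.56, SE 0.56, adjusted p 0.0254), of 45 genes tested (9.46% of all genes called), and this call was lost under median-ratio scaling, without the filter, with the replicate number as a block and without NTC blastula replicate 2. The count was 2 without in vivo blastula replicate 1 or 2 or NTC blastula replicate 3. In NTM blastulas none was called (0.746% of all genes, 3 proteasome genes at an unadjusted p under 0.05, limma), although Psme4 had 19.3, 11.01 and 5.25 RPKM, all above the in vivo libraries. Without NTM blastula replicate 3 the count was 2. Between NTM and NTC blastulas none was called, as for all genes (0% of 10187, limma, 1 proteasome gene at an unadjusted p under 0.05). The 3 in vivo blastula libraries were the least alike of any group (Pearson's r of 0.75 to 0.76).

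The 50 genes took 0.190 to 0.351% of all reads in the libraries of 1-cell and 2-cell embryos, a range that overlaps with that of later libraries given above. Counted over nuclear genes alone, since the mitochondrial share also rose with stage (2.92 to 22.9% before the 4-cell stage), the mean was 0.283 ± 0.0385% (SD, n = 3) at the in vivo 2-cell stage, 0.802 ± 0.0694% at the 8-cell stage and 0.929 ± 0.0438% in blastulas. For NTC these were 0.335 ± 0.0438, 0.826 ± 0.0742 and 1.21 ± 0.0128%, and for NTM 0.320 ± 0.0716, 1.06 ± 0.0944 and 1.16 ± 0.154%. The donor cells stood at 0.567 ± 0.0776% (CC) and 0.556 ± 0.0613% (MEF), between the 2-cell and the 8-cell embryos.

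The donor cells were compared with the blastulas that their nuclei gave rise to. Between the donor types only Psmd8 was called, higher in MEFs (536, 434 and 336 against 174, 236 and 135 RPKM, 1.27, SE 0.31, adjusted p 0.0465), of 46 tested (6.29% of all genes called), and it was lost without the filter, under median-ratio scaling and without any 1 library other than CC replicate 2. In NTC blastulas 13 of 46 genes were higher and 6 lower than in CCs (9.92% and 14.3% of all genes), led by Psmd14 (2.87, SE 0.53), Psma4 (2.26, SE 0.43) and Psma6 (1.90, SE 0.32). In NTM blastulas 6 of 47 were higher and 6 lower than in MEFs (11% and 19.8%). The highest of these were Psma1 (2.47, SE 0.39), Psma4 (2.32, SE 0.39) and Psma6 (1.83, SE 0.40). The NTM count of higher genes was near the share of all genes, and that of lower genes was below it. For NTC the count of lower genes was near the share of all genes, and that of higher genes was above it. With nuclear genes alone the split was 18 higher and 4 lower for NTC, and 14 and 6 for NTM. Median-ratio scaling gave 15 and 4, and 14 and 5. For these 2 scalings the shares of all genes called are not given, so their counts have no background beside them. The NTC count of 19 became 8, 9 and 12 without NTC blastula replicate 1, 2 and 3. In these 2 comparisons an embryo is set against many cells of another kind.

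The genes that were lower in blastulas than in their donors included the pair that builds the activator PA28 alpha-beta, which interferon induces and which serves antigen processing. Psme1 had 10.2, 6.86 and 21.3 RPKM in CCs, 7.28, 3.17 and 5.32 in MEFs, 0.789, 0.262 and 0.133 in NTC and 0.504, 0.280 and 0.197 in NTM blastulas, with differences of -3.20 (SE 0.59, adjusted p 0.00801) and -2.19 (SE 0.48, adjusted p 0.00958). Psme2 had 40.6, 52.5 and 17.6 in CCs and 43.6, 31.2 and 27.9 in MEFs, and its differences were -2.09 (SE 0.54) and -2.26 (SE 0.48). Psmd2, the other scaffold of the base, was lower in both comparisons (-2.30 and -2.21), Psmd4 (-2.26), Psmc1 (-1.55) and Psmc3 (-1.11) were lower than in CCs, and Psmd9 (-2.61), Psmb10 (-2.46) and Psmc5 (-2.44) lower than in MEFs. The 7 interferon and antigen-processing genes followed beside them summed to 265 to 307 RPKM in CCs and 449 to 677 in MEFs. In blastulas the sum was 20.9 to 23.9 (NTC) and 11.8 to 18.4 (NTM). Psme1 was not low in all embryos, since its highest group mean was that of in vivo 4-cell embryos (38.7 RPKM, against 12.8 in CCs). In vivo, both Psme1 and Psme2 rose from the 2-cell to the 4-cell stage and fell from there to the 8-cell stage.

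The catalytic subunits of the immunoproteasome, which replace the standard ones under interferon, differed in level in embryos. Psmb8 was above 0 in 2 of 54 embryo libraries (at most 0.0981 RPKM) and in all 6 donor libraries (0.0196, 0.0231 and 0.0116 in CCs and 0.451, 0.522 and 0.0306 in MEFs). For Psmb8, 1 read was worth 0.00764 to 0.0691 RPKM, and less in the deeper donor libraries than in embryo libraries. The CC values lie near this floor, so a difference in detection between CCs and embryos cannot be told apart from depth. Psmb9 was above 0 in 23 embryo libraries and reached 1.45 RPKM in an NTM 2-cell embryo. Psmb10 was above 0 in 40 embryo libraries and reached 22.2 RPKM in an NTM 4-cell embryo. Its libraries held 20.6, 18.1 and 18.1 RPKM in in vivo 4-cell embryos, its highest group by mean, 10.8, 22.2 and 4.53 in NTM 4-cell embryos, 6.85, 18.5 and 4.09 in CCs and 22.3, 2.53 and 11.97 in MEFs, so that embryo and donor libraries overlapped. It was listed at 0 in every in vivo 1-cell and 2-cell library, had 10.01, 5.77 and 5.29 RPKM in in vivo 8-cell embryos and rose (2.96, SE 0.46, adjusted p 0.00167). In NTC embryos its change was 1.73 (SE 0.72, adjusted p 0.0939) and in NTM embryos 1.12 (SE 0.81, adjusted p 0.300), with 0, 6.01 and 0 RPKM at the NTM 2-cell stage, where 1 library of 3 held all of it.

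The tissue-specific subunits Psma8 (testis) and Psmb11 (thymus) and Psme2b were scarce. Psma8 was above 0 in 18 of 54 embryo libraries, with at most 5.53 RPKM, and had 0.202, 0.423 and 4.58 RPKM in the NTC 8-cell libraries. Psmb11 was above 0 in 19 embryo libraries, up to 4.81 RPKM in an NTM 2-cell embryo, and in no donor library. Psme2b, a near copy of Psme2, was above 0 in 1 library, and reads of the 2 genes may have been split between them or dropped by the counting.

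Of the chaperones of alpha-ring assembly, Psmg1 was abundant from the start and the other 3 were low. In in vivo 1-cell embryos Psmg1 had 99.3 ± 70.6 RPKM (SD, n = 3), Psmg4 1.29 ± 1.005 and Psmg3 0.291 ± 0.203, and Psmg2 was listed at 0 in the 3 libraries. Psmg3 rose from 2 to 8 cells in all 3 types (1.61, SE 0.50, 2.24, SE 0.48 and 2.28, SE 0.42), and Psmg2 in NTM embryos (2.09, SE 0.47, adjusted p 0.00930). In vivo Psmg2 had 2.51, 0.957 and 0.976 RPKM at the 8-cell stage after 0 in every 2-cell library, and the difference of 1.25 (SE 0.46) was not called (adjusted p 0.0617). Psmg4 was not called in any type (0.91, 0.96 and 1.13). Psmc3ip, the gene that is no subunit, had at most 11.3 RPKM as a group mean outside in vivo 4-cell embryos (63.00, 51.1 and 63.8 there) and rose in NTM embryos (2.06, SE 0.48, adjusted p 0.0108).

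Genes tied to the proteasome but outside the symbols chosen above were followed from a list of 29, of which 28 were matched in the table. Most of them serve the proteasome without being a subunit. Adrm1 and Sem1, however, encode cap subunits that the choice by symbol left out, and both are included in the counts below. From 2 to 8 cells, 5 of the 26 tested rose and 9 fell in vivo. For NTC 6 of 26 rose and 5 fell, and for NTM 7 of 27 rose and 5 fell, beside the shares of all genes given above. Nfe2l1, the transcription factor that drives subunit genes when the proteasome is short, fell in all 3 types (log2 fold changes in vivo, for NTC and for NTM of -2.25, -1.99 and -1.57). Ngly1, which removes the sugars of Nfe2l1 and thereby activates it, fell as well (-4.44, -4.47 and -3.28), and so did Akirin2, which carries proteasomes into the nucleus (-2.66, -3.80 and -1.39). Uchl5, a deubiquitinase of the cap (2.37, 2.93 and 3.34), and Vcp, the unfoldase that extracts substrates (3.17, 2.37 and 4.37), rose in all 3. So did Ufd1, a partner of Vcp (3.94, 2.87 and 3.78), and Rps27a, which encodes ubiquitin fused to a ribosomal protein (7.76, 4.48 and 6.64). The maturation factor Pomp rose in NTM embryos (2.28) and was not called in vivo (0.87) or in NTC embryos (0.48).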

How the data were processed

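RNA-seq levels of 27238 genes were taken as deposited for 60 libraries, 3 in each of 20 groups, which were assigned from the sample labels. Per the labels and the study's methods, RNA of single embryos or of donor cells was reverse transcribed, tailed and amplified by PCR, reads were counted per gene, and the authors deposited RPKM values, which are scaled to gene length and to library depth. The methods name TopHat, Bowtie2 and HTSeq, while the submitters' processing notes list Bowtie 0.12.2 and the build mm8. Whether the counting used strand is not given in the sources used here. Because RPKM are no counts, differences were tested on log2(RPKM + 1) with limma 3.58.1 in R 4.3.3, fitted to the groups compared over all genes with a mean of at least 0.5 RPKM, with Benjamini-Hochberg adjustment over those genes. Library depth, 5294167 to 47830132 reads with a median of 15451428, was recovered from the steps of the RPKM values (tolerance 0.02 reads). All values of the 50 genes came out as whole reads, for 31 genes at the GENCODE length and for 19 at a length set from the steps themselves, and 1 read on 2000 nt is worth 0.0105 to 0.0944 RPKM.

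Symbols and gene types came from GENCODE M21 by Ensembl identifier (27013 genes matched), and promoters from RefSeq. The code was tested on simulated data. Genes are named with values where they carry a catalytic, regulatory or chaperone role, where they are among the 3 largest called changes in a direction, or where they were called against the majority; a few others were named after their values had been seen. The genes, lists and comparisons were chosen with earlier results of these data known. Alternatives were median-ratio scaling, scaling over nuclear genes only, a smaller pseudocount (0.1), leaving the filter out, a fit over all 20 groups, the replicate number as a block, calls without a fold change threshold, and leaving out each library. The comparisons of 2-cell with 8-cell embryos were added once the in vivo 4-cell libraries had been seen to stand apart. Samples with the same replicate number were checked for pairing and did not deviate together. NT libraries carry no strain label, and their strain was taken from the study's methods.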

Additional observations from a re-analysis of the deposited data

Results flagged for a closer look

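The change from the 2-cell to the 4-cell stage differed between NT and in vivo embryos by an interaction term in limma for 18 proteasome genes in the NTC type and for 12 in the NTM type. Genes outside the proteasome were called by the same terms as well. The numbers tested and the shares of all genes called are given above, with the comparisons at the 4-cell stage. In NTC embryos the difference of log2 changes, NTC minus in vivo, was -6.51 for Psmb4, -5.996 for Psmb5 and -5.47 for Psmg2, and it was 2.43 for Psmd8. In NTM embryos it was -5.63 for Psmb4, -5.56 for Psmb5 and -5.50 for Psmc5, and it was 2.73 for Psmd14. All of these rest on the 3 in vivo 4-cell libraries, in which mitochondrial genes took 5.68 to 8.87% of the reads, and both types share them. With 8-cell libraries in their place, 0 genes were called for either type by limma, with 7 (NTC) and 5 (NTM) at an unadjusted p under 0.05. The part of the libraries in the difference was not tested further.

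Pseudogenes of the proteasome genes, which belong to no comparison above, were at 0 in all in vivo libraries in 2 cases and above 0 in NT libraries. The highest value of Psmb7-ps2 was 0.230 RPKM, in NTC 1-cell replicate 2, while the other 2 libraries of that group were at 0. The highest value of Psmb6-ps was 6.07 RPKM, in NTM 1-cell replicate 2, again with 0 in the other 2 libraries. In NTC 2-cell embryos Psmb6-ps had 0.831, 0 and 1.32 RPKM. The counting could have split reads between Psmb6 and this near copy, and Psmb6 itself had 22.4, 18.3 and 18.9 RPKM in the NTM 1-cell libraries. Groups of 3 libraries are too small for a test of single outlying samples, so none was made.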

How the results depend on the processing

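Each count of called proteasome genes was recomputed under the alternatives. Shares of all genes called are not given for the alternatives, so the counts show only how far the calls moved. No call of a named gene changed its direction in any of them, and of the recomputed fold changes of named genes 1225 kept their call and 175 lost it. In the comparisons of 2-cell with 8-cell embryos, every count stayed within 1.5 times the reported one under all alternatives. Leaving out a library gave 17 to 23 calls in vivo, 22 to 29 for NTC and 22 to 31 for NTM.

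The fit over all 20 groups moved 14 of 32 counts by over 1.5 times and left 18 within that range. It gave 1 call from 1-cell to 2-cell in vivo, 13 for NTM over that step, 34 from 2-cell to 4-cell for NTM, 1 from 4-cell to 8-cell for NTC and 7 from morula to blastula in vivo. Against in vivo embryos it gave 4 at the 1-cell stage for NTC, 2 at the 8-cell stage for NTC, and 4 (NTC) and 6 (NTM) in blastulas. It gave 6 between NTM and NTC 1-cell embryos, 3 between MEFs and CCs, 19 for the interaction from 2-cell to 4-cell in NTM, and 1 (NTC) and 3 (NTM) for the interactions from 2-cell to 8-cell.

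A pseudocount of 0.1 gave 2 calls from 1-cell to 2-cell for NTM, and 2 in NTC and 2 in NTM blastulas against in vivo. Without the filter there were 2 from 1-cell to 2-cell for NTM and 0 for NTM 1-cell, NTC blastula (each against in vivo) and MEF against CC. Median-ratio scaling gave 0 for NTC blastula against in vivo, 0 for MEF against CC and 19 for NTM blastula against MEF. Nuclear genes alone gave 1 for NTM 8-cell and 2 for NTM blastula against in vivo, and 20 for NTM blastula against MEF. With 8-cell in place of 4-cell embryos, an alternative chosen after seeing the data, the NTM count was 31 and the interactions gave 0 (NTC) and 0 (NTM). The SD of the core subunits within a library, taken on log2(RPKM + 0.1), was 1.05 to 1.15 in in vivo 4-cell embryos and 1.23 or more elsewhere. Dropping the fold change threshold changed no count by over 1.5 times.

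The replicate numbers did not pair the samples. Deviations of same-numbered libraries from their group means had correlations of -0.20 to 0.12 over 28 comparisons, and in 0 of them was every pair above 0.1. The fit with the replicate number as a block gave 0 calls for NTC 1-cell, 0 for NTM 1-cell, 1 for NTM 8-cell and 0 for NTC blastula (each against in vivo), and 11 for NTC blastula against CC. It moved no other count by over 1.5 times.

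Leaving out each library in turn gave 6 to 14 calls from 1-cell to 2-cell for NTC, 2 to 7 for NTM, 12 to 18 from 2-cell to 4-cell for NTM and 0 to 6 from morula to blastula for NTM. Against in vivo embryos the ranges were 0 to 11 (NTC 1-cell), 0 to 3 (NTM 1-cell), 13 to 24 (NTM 4-cell), 0 to 2 (NTC blastula) and 0 to 2 (NTM blastula). They were 6 to 17 for NTM against NTC 1-cell embryos, 0 to 1 for MEF against CC, 8 to 18 for NTC blastula against CC, 7 to 14 for the interaction from 2-cell to 4-cell in NTM and 0 to 1 for that from 2-cell to 8-cell in NTM. The cause of these shifts was not tested. With 3 libraries in a group and depths of 5294167 to 47830132 reads, absent calls at the 1-cell and blastula stages are no sign of equal levels.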
